A study of Mus musculus with 2 samples.

Results

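The regions described here carried trimethylation of lysine 4 of histone H3 (H3K4me3) in a wild-type mouse fibroblast line and were not drawn as regions in a line without Lsh. They were chosen by read number. On chromosomes 1 to 19, windows of 200 bp with at least 6 reads were joined across gaps of up to 1000 bp, and a stretch that held at least 20 reads was kept as a region. Of 10876 regions drawn in the wild-type library, 581 shared no base with any of the 11227 regions drawn in the other library, which is 5.34% of them. These 581 are called WT-only regions. The other 10295 are called shared, and 959 regions drawn in the line without Lsh that met no wild-type region (8.54%) are called Lsh_KO-only. Because the read numbers of both libraries chose the members, the differences in reads given below describe the choice and were not tested.

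H3K4me3 is laid down on nucleosomes that flank the start sites of active genes and of many genes held poised for use. It is recruited in large part by unmethylated CpG islands, stretches rich in the CpG dinucleotide. Lsh (Hells) belongs to the SNF2 remodellers, which move nucleosomes with the energy of ATP. Cells need it for normal levels of DNA methylation, and it is known for silencing repeats and for its part in regulating developmental genes.

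The WT group was a mouse embryonic fibroblast line with genotype Lsh+/+, and the Lsh_KO group was such a line with genotype Lsh-/-. Each had 1 library, no input or other control library was used here, and both were grown in the same serum-containing medium. The derivation of the lines is not stated in the labels, so a difference between the lines cannot be told apart from an effect of Lsh. The WT library held 4070117 reads in its windows and Lsh_KO held 4550293. Intervals below are 95% Clopper-Pearson intervals and cover counting error only, because reads amplified by PCR and lacking molecular identifiers do not count independent molecules.

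Genes were named by sequence. RefSeq promoter sequences (250 bases before to 50 after each start, build GRCm38.p6) were searched for exact matches to the 25-base reads, whose positions are on build mm8. A start was placed on mm8 where at least 2 distinct reads implied the same position. Of 32851 promoters, 13157 were placed so, from 11341 genes.

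The following stretches come from 3 of the members with the most reads and from the promoters of 4 genes at members, with every CG in capitals because the CpG content is compared below. The first 3 were read from the deposited reads inside members on mm8 and are the longest runs covered without a gap. They are chr9:24521084-24521247 in the member with the most reads, chr11:96103092-96103222 in the member with the second most, which lies among the Hoxb genes, and chr6:4455742-4455884 in the member at the Col1a2 start. All 3 are written on the plus strand.
chromosome 9 member: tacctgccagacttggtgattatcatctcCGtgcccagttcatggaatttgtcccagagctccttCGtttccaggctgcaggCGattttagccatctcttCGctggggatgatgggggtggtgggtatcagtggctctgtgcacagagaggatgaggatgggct
chromosome 11 member: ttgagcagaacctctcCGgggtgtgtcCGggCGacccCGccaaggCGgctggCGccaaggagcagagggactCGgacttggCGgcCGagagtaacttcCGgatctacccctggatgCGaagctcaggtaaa
Col1a2 member: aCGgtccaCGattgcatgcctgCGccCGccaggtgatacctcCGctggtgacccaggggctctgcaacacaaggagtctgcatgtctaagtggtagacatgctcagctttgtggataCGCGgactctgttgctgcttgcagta
The next 4 are the 250 bases before the start of a gene at a WT-only region, from RefSeq on GRCm38.p6 and written in the direction of transcription. They run from the CpG-rich to the CpG-poor end. The positions are chr3:83766071-83766320 (plus strand) for Sfrp2, chr13:56296552-56296801 (minus) for Cxcl14, chr8:13494536-13494785 (minus) for Gas6 and chr6:36810180-36810429 (minus) for Ptn.
Sfrp2: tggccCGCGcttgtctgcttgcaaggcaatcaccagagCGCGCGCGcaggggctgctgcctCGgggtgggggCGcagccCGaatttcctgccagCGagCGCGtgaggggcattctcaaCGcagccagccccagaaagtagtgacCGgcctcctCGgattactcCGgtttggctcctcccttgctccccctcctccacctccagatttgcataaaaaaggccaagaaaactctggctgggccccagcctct
Cxcl14: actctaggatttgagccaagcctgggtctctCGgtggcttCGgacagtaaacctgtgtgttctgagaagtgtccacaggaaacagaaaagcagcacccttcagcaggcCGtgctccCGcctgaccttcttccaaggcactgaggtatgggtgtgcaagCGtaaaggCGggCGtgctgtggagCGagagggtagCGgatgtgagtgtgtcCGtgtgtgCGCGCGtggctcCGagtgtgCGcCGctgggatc
Gas6: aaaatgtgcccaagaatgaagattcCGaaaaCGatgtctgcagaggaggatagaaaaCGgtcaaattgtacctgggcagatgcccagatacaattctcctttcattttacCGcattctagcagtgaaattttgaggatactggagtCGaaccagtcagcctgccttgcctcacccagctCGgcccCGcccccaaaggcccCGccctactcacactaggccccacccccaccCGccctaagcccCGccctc
Ptn: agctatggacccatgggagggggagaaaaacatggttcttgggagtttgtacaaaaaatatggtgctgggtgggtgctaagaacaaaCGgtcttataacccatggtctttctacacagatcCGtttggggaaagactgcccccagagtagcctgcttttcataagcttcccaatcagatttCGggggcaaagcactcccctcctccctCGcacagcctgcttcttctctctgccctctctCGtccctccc
The Sfrp2 and Cxcl14 stretches each held 16 CG pairs, the Gas6 stretch 10 and the Ptn stretch 5. The chromosome 9 stretch held 4 CG pairs in 164 bases, and the chromosome 11 stretch 11 in 131.

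WT-only regions were mostly weak and short. Their WT reads ran from 20 to 433 with a median of 30, against a median of 93 in shared regions. Of the 581 members, 289 held 20 to 29 WT reads, 233 held 30 to 59, and 59 held 60 or more. The median width was 800 bp, against 1200 bp in shared regions, and 32 members were wider than 2 kb. In the same bases Lsh_KO held 0 to 71 reads with a median of 13. At the edge of the rule, 52 members held exactly 20 WT reads, with a median of 9.0 Lsh_KO reads. A further 44 stretches with 19 WT reads and no Lsh_KO region fell just outside, with a median of 9.5. The first 3 of each in genome order were chr1:90087601-90088600, chr2:35801201-35802000 and chr2:92171601-92172400 inside, with 18, 18 and 1 Lsh_KO reads, and chr1:33935401-33935800, chr1:78073001-78073400 and chr1:131100801-131101400 outside, with 1, 3 and 11.

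Most members held reads above background in Lsh_KO as well. Outside all regions the libraries held 1.16 (WT) and 1.12 (Lsh_KO) reads per kb, and the median member stood at 34.6 times that background in WT and at 13.4 times in Lsh_KO. In Lsh_KO, 476 of the 581 members (81.9%, interval 78.6 to 85.0) were at 5 or more times background, 66 were at 2 to 5 times, and 39 (6.71%, 4.82 to 9.06) were under 2 times. An Lsh_KO window of at least 6 reads lay in 296 members (50.9%, 46.8 to 55.1). By the rule, such windows joined to fewer than 20 reads in Lsh_KO. In 127 members the whole stretch held 20 or more Lsh_KO reads, and in 7 it held more Lsh_KO than WT reads. The remaining 285 members, 49.1%, had no Lsh_KO window of 6 reads. Their median was 28 WT and 7 Lsh_KO reads. With windows made from distinct reads of the read lists alone, 283 of 8691 WT regions were WT-only, and 105 of the 581 members met one of them.

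Ratios were scaled so that the median shared region, which held 1.41 times as many Lsh_KO as WT reads, stood at 1. The median member was then lower in Lsh_KO by a log2 ratio of -1.81, with quartiles of -2.79 and -1.23. A region was called lower when it was at least 2-fold lower after scaling, its interval lay below 1 and both libraries summed to at least 20 reads. Of all WT regions 6.38% passed, 491 of the 581 members and 203 of the 10295 shared regions. As the rule used the same reads, nothing is read from this count. The scatter of reads shows the members as the lower edge of the WT regions with few reads, plus a small number of strong regions far below the line.

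**Figure D1:**
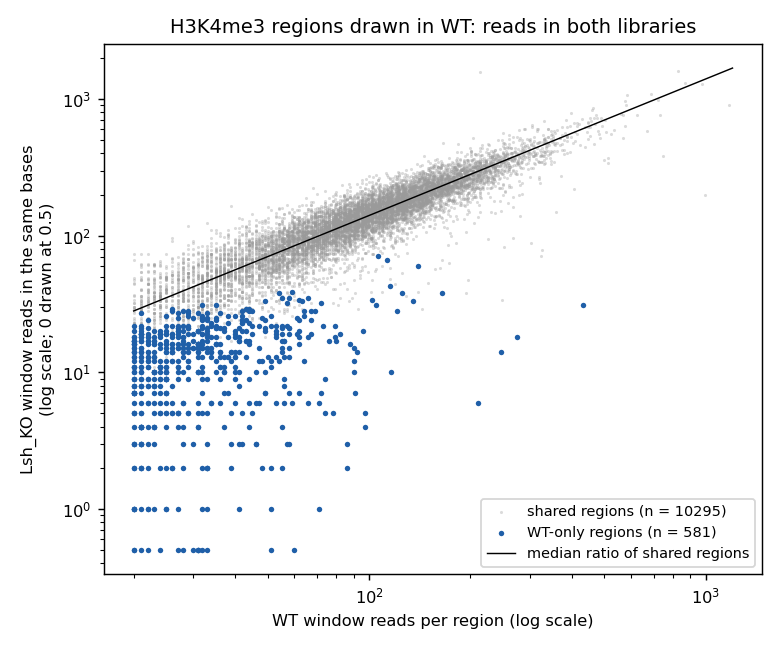
Window reads of each region drawn in WT (horizontal, log scale) and Lsh_KO reads in the same bases (vertical, log scale, 0 drawn at 0.5), with 10295 shared regions in grey and 581 WT-only regions in blue. Most members hold 20 to 59 WT reads, and a few with over 200 WT reads lie far below the median ratio of shared regions (line).

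The member with the most reads, chr9:24518801-24524800, held 433 reads in WT and 31 in Lsh_KO, 19.6-fold lower (interval 13.6 to 29.3). Its highest window held 65 WT reads, and the highest Lsh_KO window held 6. No start was placed in it. It lies between the placed starts of Dpy19l1 and E130101E03Rik, between which the GRCm38.p6 gene table lists Tbx20, a T-box transcription factor of the heart and its mesenchyme, beside Dpy19l2 and Cypt4. At 4.61 times background, the stretch was low but above background in Lsh_KO.

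The cluster with the most members lay among the Hoxb genes, which encode homeodomain factors that set position along the body axis. On chromosome 11, 7 members lay between 96067601 and 96131600 and together held 861 WT and 59 Lsh_KO reads. Of these, 6 lie between the placed starts of the lncRNA gene Gm51876 and of Hoxb4, where the gene table lists Hoxb9, Hoxb8, Hoxb7, Hoxb6 and Hoxb5. The member at 96098601-96103600 had 275 reads in WT and 18 in Lsh_KO, 21.5-fold lower (13.3 to 36.8). The neighbouring member at 96108201-96112200 held 247 and 14 reads, 24.8-fold lower (14.5 to 46.1). The member at 96114801-96115800, picked after its values were seen, held 51 and 1 read, 71.7-fold lower with a wide interval of 12.3 to 2888. Every member of this cluster had at most 3 reads in any Lsh_KO window, so none of them came near the rule's minimum of 6. The tracks show a peak of up to 17 reads per window in Lsh_KO to the right of the members, where WT also had reads.

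Beside Hand2, which encodes a basic helix-loop-helix factor of limb, heart and branchial arch mesenchyme, 2 members lay on chromosome 8. The member at 60224001-60226800, 10876 bp from the placed Hand2 start, holds the start of the lncRNA gene Gm34030. In WT it had 210 reads and in Lsh_KO 6, which is 49.2-fold lower (22.2 to 136), and it stood at 1.91 times background in Lsh_KO. The other, at 60204801-60206400 and picked after its values were seen, held 49 and 7 reads, 9.84-fold lower (4.44 to 25.8).

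**Figure D2:**
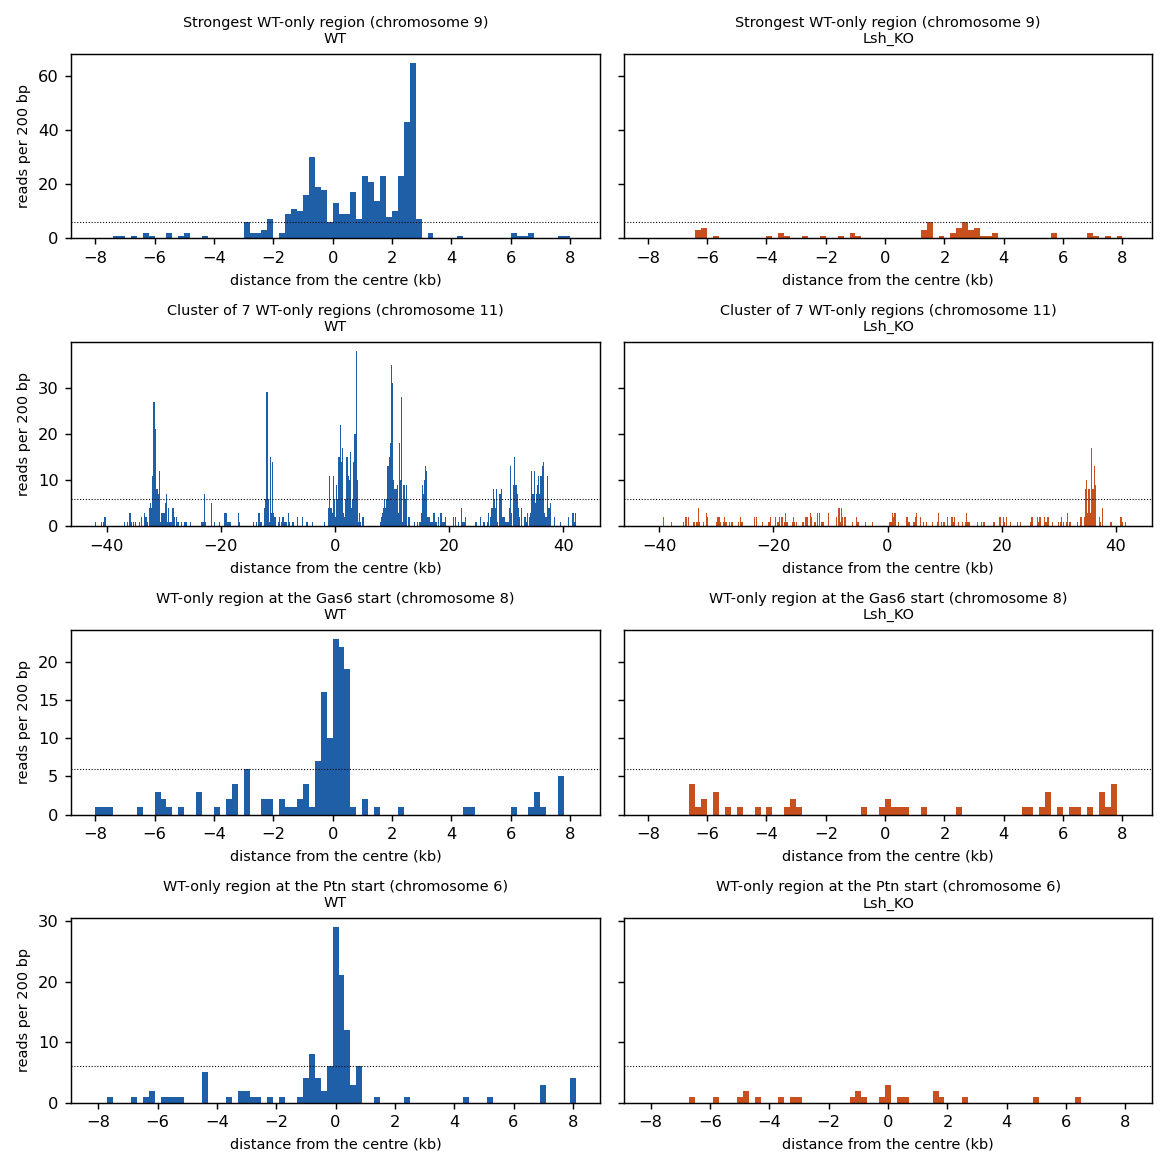
Reads per 200 bp window (vertical) against the distance from the centre of the stretch in kb (horizontal), WT on the left and Lsh_KO on the right with the same vertical scale in each row, for the strongest member, the cluster of 7 members on chromosome 11, and the members at the Gas6 and Ptn starts. The dotted line marks the rule's minimum of 6 reads: WT windows reach 65, 38, 23 and 29 reads inside the members of the 4 stretches, and Lsh_KO windows there reach 6, 3, 2 and 3.

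A fibroblast collagen gene was among the strongest members. Col1a2, which encodes a chain of type I collagen and was on the list of fibroblast markers, had its start placed at 4455618 on chromosome 6, though by 1 read rather than 2. The region around it, chr6:4455401-4458600, had 135 reads in WT against 33 in Lsh_KO, 5.75-fold lower (3.91 to 8.69), and stood at 9.21 times background in Lsh_KO. Of the 10 fibroblast markers listed, 4 had a start placed by 2 reads, and all 4 (Col3a1, Vim, Prrx1 and Twist1) lay in shared regions. Among markers of other cell types, 3 had a placed start: endothelial Kdr in a shared region, endothelial Tek in none, and epithelial Krt18 in an Lsh_KO-only region. Haematopoietic, neural, muscle and pluripotent or germ cell markers had none, so most markers were not checked. The mark lies on poised as well as active starts and is no measure of expression.

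Among the other members of the 15 with the most reads, the fold ran from 2.10 to 16.3. The region chr12:5399401-5402200, at the paired starts of Klhl29 and the lncRNA gene 2810032G03Rik, had 165 reads in WT against 38, 6.11-fold lower (4.27 to 8.93). The region at Gask1b and the lncRNA gene Gm36569, chr3:79971801-79974800, held 125 and 38 reads, 4.63-fold lower (3.20 to 6.84). Mdga1, which encodes a membrane-anchored adhesion protein that binds neuroligin, had a member of 115 and 43 reads at its start, 3.76-fold lower (2.63 to 5.47). Broad stretches of low windows made up part of this group. At chr2:165069201-165074200, between the zinc finger genes Zfp663 and Zfp334, 140 WT and 60 Lsh_KO reads were spread over 5 kb with no WT window above 10. At chr10:78467201-78471800, 106 and 71 reads gave a ratio 2.10-fold lower (1.54 to 2.88). At chr10:76152801-76156600 there were 113 and 66 reads, 2.41-fold lower (1.76 to 3.31). The nearest placed start, 13160 bp away, was that of Col6a1, which encodes a chain of type VI collagen. Between it and the placed start of Lss the gene table lists Spatc1l, Ftcd and Col6a2. The member with the fold of 16.3 (8.56 to 34.9) was chr11:96067601-96070200 of the Hoxb cluster, with 116 and 10 reads. The rest of the 15 were at chr18:61788401-61791600, chr11:114667201-114669000 and chr10:79139201-79142400, with 102 to 121 WT and 28 to 34 Lsh_KO reads.

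Promoters on chromosome 18, which held 7 of the members, were not analysed here. Of the other 574 members, 214 lay within 500 bp of a placed start (37.3%, 33.3 to 41.4), against 6891 of 10015 shared regions (68.8%, 67.9 to 69.7). Of 903 Lsh_KO-only regions on the same chromosomes, 327 did (36.2%, 33.1 to 39.4), and this interval overlapped that of the members. With 20 to 29 WT reads the shares were 30.2% (24.9 to 35.9) of WT-only and 50.3% (45.75 to 54.9) of shared regions. With 30 to 59 WT reads they were 42.9% (36.4 to 49.5) and 61.2% (59.01 to 63.3). Among the starts themselves, 251 of 12785 (1.96%) were at a WT-only region and at no shared region. They belonged to 227 of 11013 genes (2.06%), of which 187 were protein-coding and 40 lncRNA genes. In 14 of the 227 genes another start lay in a shared region. Because a start was placed by reads, starts without any mark were placed less often, so these shares are not shares of all genes. Regions with more reads in either library also had more reads to place a start. The part of this in the differences between classes was not tested.

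The following 3 genes of the 227 encode secreted proteins and were picked after their values were seen, so they say nothing of that group of genes. Gas6, the ligand of the receptor kinases Tyro3, Axl and Mer, had a region of 97 WT and 5 Lsh_KO reads at its start (chr8:13493401-13494600), 27.3-fold lower (11.3 to 85.9). Ptn, the heparin-binding growth factor pleiotrophin, had 91 and 7 reads (chr6:36738801-36740600), 18.3-fold lower (8.52 to 46.8). At the start of the chemokine gene Cxcl14 there were 78 and 5 reads (chr13:56304601-56306400), 21.9-fold lower (9.01 to 69.5). All 3 regions had Lsh_KO windows of at most 3 reads. Their Lsh_KO levels lay between 2.48 and 3.72 times background.

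The next 5 genes, of other roles, were also picked after their values were seen. Epb41l3, which encodes a protein linking membrane proteins to the cytoskeleton, had 97 WT and 4 Lsh_KO reads (chr17:69061601-69063600), 34.1-fold lower (12.9 to 128). Dact2, which encodes a protein that binds Dishevelled in Wnt signalling, had 71 and 1 read (chr17:13939401-13940400), 99.8-fold lower with an interval of 17.4 to 3998. Prkg1, the cyclic GMP-dependent protein kinase, had members at 2 of its starts, with 90 and 10 reads in the first and 66 and 18 in the second. In contrast, the member at Tert, the catalytic subunit of telomerase, held 55 and 19 reads, and that at Cgas, the sensor of cytosolic DNA, 67 and 24. Both were still over 20 times background in Lsh_KO.

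A further 8 members with at least 30 WT reads had 0 Lsh_KO reads. At chr5:117501601-117502400 there were 60 WT reads, 28.1-fold lower with a floor of 3 Lsh_KO reads put in place of 0. The lower limit of its interval was 22.2-fold. At chr5:21246801-21247600 there were 51, which is 23.9-fold lower with the same floor, with a lower limit of 18.75. Both lay away from a placed start. The starts of Bscl2, which encodes the lipid droplet protein seipin, Apbb1ip, which encodes an adaptor of integrin activation, and Slc18b1, a vesicular polyamine transporter gene, lay at members of 32, 31 and 30 WT reads. The other 3 were at chr15:91400201-91400800, chr10:8452201-8452800 and chr15:36123801-36124200, with 31 to 33 WT reads. At the first of them a start of Slc2a13 was placed, though by 1 read.

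Of the gene lists set up for fibroblasts, each had few genes at WT-only regions, to be read against the 2.06% of all placed genes. Signalling genes had 2 of 34 placed genes, with 27 in shared regions, 2 at Lsh_KO-only regions (Chrd and Igfbp5) and 3 in none. Sfrp2, a secreted Wnt antagonist, held 33 WT and 2 Lsh_KO reads (chr3:83851801-83852600), 23.2-fold lower (5.93 to 200). Fgf10, a mesenchymal ligand of the receptor Fgfr2, held 22 and 0 reads (chr13:119833201-119834000), 10.3-fold lower with the floor put in place of 0. Extracellular matrix genes had 1 of 13, Col8a1, a chain of type VIII collagen, with 31 and 4 reads (10.9-fold lower, 3.85 to 42.5). Another 10 matrix genes lay in shared regions, 0 at Lsh_KO-only regions and 2 in none.

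Developmental transcription factors had 1 of 37 at a WT-only region, 23 in shared regions, 2 at Lsh_KO-only regions (Foxl2 and Gata5) and 11 in none. The first was the LIM homeodomain gene Lhx9, with 44 and 28 reads (2.21-fold lower, 1.35 to 3.69). Of 16 placed Hox genes, Hoxd11 was the 1 at a WT-only region, with 21 and 2 reads (14.8-fold lower, 3.61 to 130). Another 2, Hoxd3 and Hoxd8, were at Lsh_KO-only regions, 4 were in shared regions and 9 in none. The starts of Hoxb5, Hoxb6, Hoxb7, Hoxb8 and Hoxb9 were not placed, so the list does not count the cluster of 7 members. Imprinted genes, which are expressed from 1 parental allele under the control of DNA methylation, had 2 of 18: Gnas, with 53 and 22 reads at a start beside another in a shared region, and Rasgrf1, with 23 and 10. Mkrn3 was at an Lsh_KO-only region. Interferon and immune genes had 1 of 12, Irf7, with 47 and 15 reads (4.41-fold lower, 2.42 to 8.48), while Il6 was at an Lsh_KO-only region. Cell cycle and senescence genes had 0 of 7, all in shared regions. Of 31 germline genes, which DNA methylation keeps silent in somatic cells, 1 was placed and lay in no region.

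CpG content had no part in the rule. It was taken from the bases covered by reads inside each region, and CpG-rich means here a GC content over 50% together with a ratio of observed over expected CpG over 0.6. Of the WT-only regions, 41.0% (36.9 to 45.1) were CpG-rich, against 70.3% (69.4 to 71.2) of shared regions and 37.6% (34.6 to 40.8) of Lsh_KO-only regions. The intervals of WT-only and shared regions lay apart, and those of WT-only and Lsh_KO-only regions overlapped. Since weak regions differ from strong ones, regions of like WT read number were compared. Lsh_KO reads were not matched, and shared regions also had to pass the rule in Lsh_KO. At placed starts, shared regions with 20 to 59 WT reads peaked at 50.1 Lsh_KO reads per kb, against 12.2 at WT-only regions. The comparison therefore does not remove all differences in strength. At 20 to 29 reads, 37.0% (31.4 to 42.9) of WT-only and 57.4% (52.95 to 61.8) of shared regions were CpG-rich, and at 30 to 59 reads 43.3% (36.9 to 49.98) and 66.7% (64.7 to 68.8). At 60 or more reads the shares were 50.8% (37.5 to 64.1) of 59 members and 72.1% (71.0 to 73.1).

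The CpG-poorest class was larger among members than among shared regions. A ratio of observed over expected CpG under 0.3 was found in 135 of 581 WT-only regions (23.2%, 19.9 to 26.9) and in 2.40% (2.11 to 2.71) of shared regions. Among Lsh_KO-only regions it was 17.2% (14.9 to 19.8). At 20 to 29 WT reads the shares were 25.6% (20.7 to 31.0) of WT-only and 9.64% (7.19 to 12.6) of shared regions. Members at a placed start were CpG-rich in 57.0% (50.1 to 63.7), and members away from one in 31.7% (26.9 to 36.8). Fewer bases were covered by reads in members, a median of 327 against 828 in shared regions, so that each member's ratio is less precise.

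**Figure D3:**
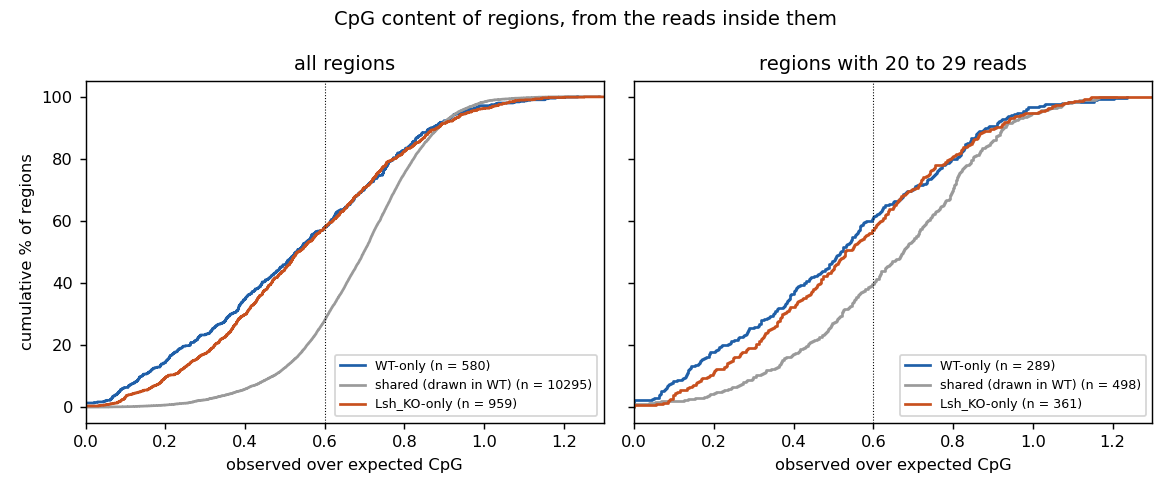
Cumulative share of regions (vertical, %) by the ratio of observed over expected CpG (horizontal), for WT-only (blue), shared (grey) and Lsh_KO-only (orange) regions, for all regions on the left and for those with 20 to 29 reads on the right. Reads on the right are WT reads for WT-only and shared regions, and Lsh_KO reads for Lsh_KO-only regions. The dotted line marks 0.6; the blue and orange curves lie close together and above the grey curve up to that ratio in both panels.

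Promoters at WT-only regions also held less CpG than those at shared regions. A RefSeq promoter of 300 bases at a WT-only region held a median of 17 CpG pairs (quartiles 9 and 25, 251 promoters), against 23 (16 and 31) in the 9557 at shared regions, 16 (9 and 25) in the 389 at Lsh_KO-only regions and 7 (3 and 20) in all 32851. The median ratio of observed over expected CpG was 0.629 at WT-only, 0.812 at shared and 0.656 at Lsh_KO-only regions, so the order of WT-only and Lsh_KO-only promoters turned with the measure. Of 4 motifs searched on both strands, GGGCGG was found in 61.8% of promoters at WT-only regions, 69.2% at shared regions and 35.7% of all. The motif TATAAA was found in 7.57% of those at WT-only regions (19 promoters), 5.0% at shared regions and 13.6% of all. Here the WT-only share was above the shared one, but it rests on few promoters and the difference was not tested. CCAAT was found in 25.9% at WT-only regions, 35.1% at shared regions and 37.4% of all, and TGACTCA in 1.59% (4 promoters), 3.02% and 5.20%. At Lsh_KO-only regions GGGCGG was found in 60.9%, TATAAA in 8.23%, CCAAT in 35.7% and TGACTCA in 3.34%. GGGCGG itself holds a CpG. These matches describe letters and are not binding sites.

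Around placed starts, the reads of WT-only regions lay mainly just downstream, as they did at shared regions. In WT, the 251 starts at WT-only regions had a mean of 26.9 distinct reads per kb per start in the 100 bp bin centred 250 bp downstream, against 15.1 at 250 bp upstream. Active starts commonly show a dip in nucleosome reads just upstream. The bin centred 50 bp upstream held 17.7 reads per kb (445 reads) at WT-only starts, not below the upstream shoulder (380 reads). Between them, the bin centred 150 bp upstream held 14.3 (358 reads). At shared starts the bin centred 50 bp upstream held 16.7, between shoulders of 30.1 and 52.0. At 1799 starts in shared regions with 20 to 59 WT reads it held 12.1, between 16.5 and 33.0. In Lsh_KO the WT-only starts had 7.41, 7.57 and 11.2 reads per kb in the bins centred 250 bp upstream, 50 bp upstream and 250 bp downstream. At 389 Lsh_KO-only starts the same bins held 8.61, 8.15 and 11.8 in WT and 18.6, 16.7 and 27.6 in Lsh_KO. A start was placed only where at least 2 distinct reads matched the 250 bases before or 50 after it. Starts of weak regions thus entered with reads near these bins, and the profile cannot tell this apart from a missing dip.

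**Figure D4:**
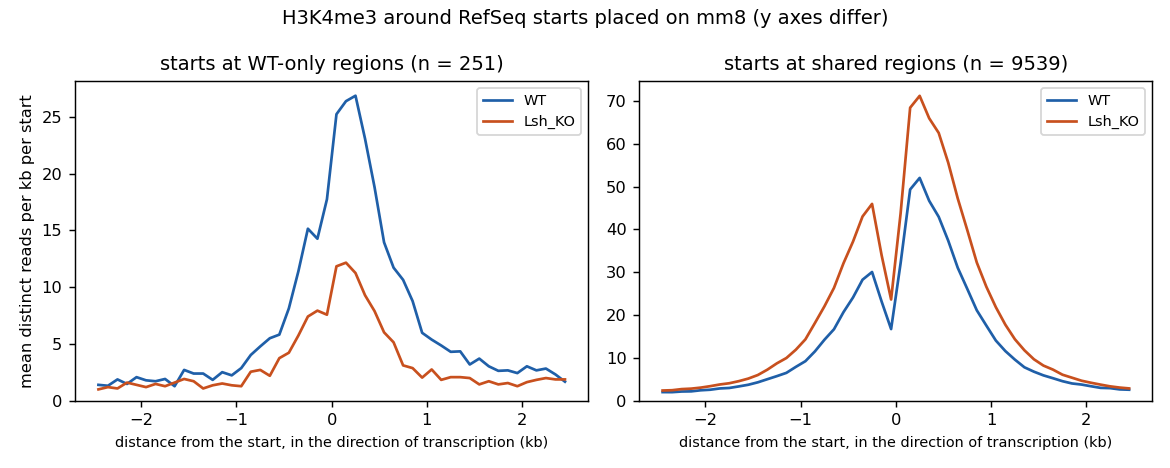
Mean distinct reads per kb per start (vertical) against the distance from the start in the direction of transcription in kb (horizontal), in bins of 100 bp, for starts at WT-only regions (left, 251 starts) and at shared regions (right, 9539 start positions), WT in blue and Lsh_KO in orange. The vertical axes differ: the WT curve peaks at 26.9 on the left and 52.0 on the right. At 50 bp upstream the WT curve lies below its value at 250 bp upstream on the right only.

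Most members lay far from one another. The nearest other member was a median of 686600 bp away. The nearest Lsh_KO region was a median of 37400 bp away, 87 members (14.97%, 12.2 to 18.1) lay within 5000 bp of one, and 242 (41.7%, 37.6 to 45.8) lay over 50 kb from any. Another member lay within 50 kb of 69 members, which formed 30 clusters. Of these clusters 26 were pairs, 2 held 3 members and 2 held 4 or more. After the cluster of 7 at the Hoxb genes, the largest was at chr1:90087601-90103600, near Hjurp, with 4 members that held 132 WT and 86 Lsh_KO reads. Members away from a start were a median of 31190 bp from the nearest placed start.

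The share of WT regions that were WT-only differed between chromosomes. It was highest on chromosome 17, with 52 of 587 (8.86%, 6.69 to 11.45), and lowest on chromosome 18, with 7 of 287 (2.44%, 0.986 to 4.96). Background reads, outside all regions, also differed by chromosome: their log2 ratio of Lsh_KO over WT, set to 0 over all chromosomes, was -0.18 for chromosome 17 and 0.51 for chromosome 18. Over the 19 chromosomes, which share both libraries, the share and this ratio had a Pearson's r of -0.57 and a Spearman's rho of -0.62, and leaving out chromosomes 16 and 18 left r at -0.57. The lowest ratio was on chromosome 16, at -0.44, with a share of 5.08% (3.04 to 7.92). In bins of 5 Mb, 68.0% of members (64.0 to 71.8) lay where Lsh_KO had fewer background reads, against 58.8% (57.9 to 59.8) of shared and 47.7% (44.5 to 50.9) of Lsh_KO-only regions. The part of this background in the calls was not tested.

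**Figure D5:**
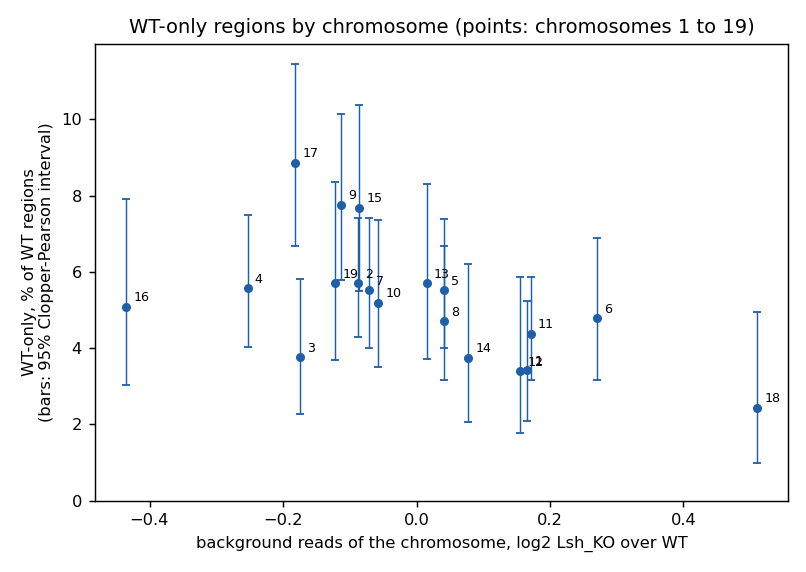
Share of WT regions that were WT-only (vertical, %, bars 95% Clopper-Pearson interval) against the log2 ratio of background reads of Lsh_KO over WT (horizontal), 1 point per chromosome with its number. Chromosome 18 lies at the lower right (2.44%, 0.51) and chromosome 17 highest (8.86%, -0.18).

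Reads that differ from the reference were no more common in the typical member. The median member had 15.8% of its distinct reads with a mismatch, against 16.5% in shared regions. More than 30% of reads carried one in 37 members (6.37%, 4.52 to 8.67) and in 1.18% (0.976 to 1.40) of shared regions, and at 20 to 29 reads in 8.65% (5.68 to 12.5) and 5.22% (3.44 to 7.56). Among these 37 was the member at chr8:91411401-91413000, with 86 WT and 3 Lsh_KO reads, singled out after its values were seen. The part of such reads in the calls was not tested.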

How the data were processed

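H3K4me3 chromatin immunoprecipitation after digestion with micrococcal nuclease was sequenced in 1 library per genotype. Per the labels' protocols, 20000000 cells were used, with 20 cycles of amplification and fragments of 200 to 400 bp. The submitters' processing notes name build mm8. The authors deposited whole-number read counts per 200 bp window and lists of aligned 25-base reads with an alignment score. The deposited alignment score and the other position columns were used as given, and no read was removed by score. No aligner is named in the labels or file headers. Distinct reads of the lists, shifted by 100 bp in reading direction, never exceeded the window counts (0 windows below). The further reads of the window lists are of unknown origin. No normalisation of either was found.

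From these files, regions, shares, exact 95% intervals and ratios were computed with Python 3.11.15, numpy 2.4.6, pandas 2.3.3 and scipy 1.17.1. The code for the region rule was checked on simulated counts with strong regions and, for WT-only ones, only background in Lsh_KO. That check does not cover weak members with Lsh_KO reads above background. Exact matches of reads to RefSeq promoters fell on the promoter's chromosome in 99.97% and strand in 99.9%. Without replicates, no test of the genotype was possible. Regions named by rule were the 15 members with the most WT reads, those with at least 30 WT and 0 Lsh_KO reads, 3 on each side of the minimum of 20 reads, and list genes at members. Other genes and regions were picked after their values were seen, also where the text does not say so. The members and lists were chosen with earlier results of these data known. Alternatives covered thresholds, depth, reads counted, scaling and definitions.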

Additional observations from a re-analysis of the deposited data

How the results depend on the processing

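The number of WT-only regions, 581, ran from 409 to 691 when the window minimum (5 or 8 reads), the joined gap (500 or 2000 bp), the region minimum (30 reads), the allowed distance (1000 bp) or the depth of Lsh_KO was changed, and when regions with over 30% mismatched reads were left out. Of the 581 members, 292 remained at the region minimum of 30 and 353 at the window minimum of 8. The number was 285 when any Lsh_KO window of 6 reads counted as a region, and 283 of 8691 with windows made from distinct list reads, of which 105 of the 581 met one. Fewer reads per window enter the latter. The CpG-rich share of 41.0% was 33.7% with GC over 55% and a ratio over 0.65, and 50.8% among members with 60 or more WT reads. The median log2 ratio of -1.81 was -1.48 when scaled by total reads, -1.70 by distinct list reads and -2.07 by further reads. The share at a start was 38.0% within 1000 bp and 41.1% with 1 placing read. The checks without mismatched regions and of chromosome shares with Lsh_KO thinned to the WT total, which left reads in regions unequal (9.88% on chromosome 17, 2.79% on chromosome 18) were chosen after seeing the data. No paired analysis was possible because each genotype had 1 library. With 20 to 29 reads in 289 members, depth limits the precision of single ratios.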

Other observations

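Chromosome X was outside the rule. Drawn in the same way, it gave 308 regions in WT, of which 9 met no Lsh_KO region, and 353 in Lsh_KO, of which 56 met no WT region.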
